A study of Bos taurus with 61 samples.

Results

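The circadian clock genes named here were the 10 genes ARNTL, CLOCK, NPAS2, PER1, PER2, PER3, CRY1, CRY2, NR1D1 and NR1D2, chosen by their symbols and not by any measured value. Of these, 7 matched 1 gene each among the 24616 genes of the deposited values, by the gene name given there or, for NR1D1, by the UniProt entry name NR1D1_BOVIN. NPAS2, PER2 and PER3 matched no name by this rule and were not analysed here. The values came from Brangus heifers, a composite of Brahman and Angus cattle, with 4 POST heifers that had reached puberty and were harvested in the mid-luteal phase of the estrous cycle, and 4 PRE heifers that had not reached puberty. RNA of hypothalamus, pituitary gland, ovary, uterus, endometrium, fat, liver and longissimus dorsi muscle was sequenced, with 31 POST and 30 PRE libraries by the labels. By the labels endometrium had 3 libraries per stage and PRE pituitary gland 3, and the other groups had 4 each. Each value used here is a mean by the authors over libraries of 1 tissue at 1 stage. It is given as RPKM, a read count divided by exon length and by the library total, or as unique reads. No value per heifer, error or test stands beside it, and differences are given by size alone.

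The POST heifers were older and heavier, and were harvested some months after the PRE heifers, which were all taken at 1 time. The hour of harvest is not given in the sources used here. Stage, season and any difference in hour cannot be told apart in these means, and genes of the clock are known to cycle over the day. The hypothalamus sample reached back from the optic chiasm as far as the arcuate nucleus, and the pituitary gland held the anterior and the posterior lobe. POST uterus and endometrium came from the side of the corpus luteum, and PRE uterus and endometrium from the side of the larger ovary. The source of the fat is named differently in the sheet headers (subcutaneous) and in the methods of the study (abdominal cavity).

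The clock is a feedback loop of transcription that runs in nearly every mammalian cell. CLOCK and ARNTL (also called BMAL1) bind each other and switch on the period (PER) and cryptochrome (CRY) genes, whose proteins return to the nucleus and restrain them. CLOCK and ARNTL also switch on NR1D1 and NR1D2, the REV-ERB nuclear receptors, which repress ARNTL and so stabilise the loop, and they drive DBP and TEF, which carry the rhythm to other genes. In mammals a clock in the suprachiasmatic nucleus of the hypothalamus follows the light, and clocks in other tissues are set through hormones, feeding and body temperature.

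On the UMD3.1 assembly, ARNTL (ENSBTAG00000013029) lies at chr15:39841299-39948727 and CLOCK (ENSBTAG00000044044) at chr6:72574278-72633079. PER1 (ENSBTAG00000003889) lies at chr19:28390594-28399600, CRY1 (ENSBTAG00000010149) at chr5:70606115-70701030, and CRY2 (ENSBTAG00000021223) at chr15:76753525-76790450. NR1D1 (ENSBTAG00000012178) lies at chr19:41040926-41048228 and NR1D2 (ENSBTAG00000018024) at chr27:41866520-41883521. No other listed gene overlapped 6 of the 7. NR1D1 shared 1098 of its 7303 bases with the gene listed as Q1RMT4_BOVIN (ENSBTAG00000010745). In the RefSeq annotation of another assembly, ARS-UCD2.0, the gene beside NR1D1 that overlaps it is THRA, a thyroid hormone receptor. Whether the counting used strand is not given in the sources used here, so reads in the shared bases cannot be told apart.

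Total mean reads per group ranged from 17109554 to 27132722. The decimals of the mean reads fit 3 libraries per hypothalamus group, where the labels name 4, and 4 libraries in PRE pituitary gland, where the labels name 3. Reads were shorter in 2 hypothalamus libraries. Several means held transcripts of another tissue, or differed between stages in genes of a cell type. In the POST ovary all 5 pituitary hormone genes (PRL, GH1, POMC, LHB, TSHB) were at least 2-fold higher, at 8.96% to 24.4% of their POST pituitary level, against 0.0453% to 0.685% of the PRE pituitary level in the PRE ovary. In POST fat 6 of 7 liver genes were at least 2-fold higher, and the 7 stood at 2.835% to 6.53% of their POST liver level, against 0.0282% to 4.615% of the PRE liver level in PRE fat. In the POST endometrium all 5 smooth muscle genes were lower (summed RPKM 241 in POST and 3211 in PRE). In the POST pituitary gland 5 of 6 endothelial genes were lower (summed RPKM 42.6 in POST and 299 in PRE). Of 5 oligodendrocyte genes 2 were lower there (summed RPKM 22.1 in POST and 717 in PRE). Of that sum MBP of myelin held 10.8 in POST and 701 in PRE. In POST muscle all 3 matched fat genes were lower (summed RPKM 15.6 in POST and 146 in PRE), and 4 of 5 smooth muscle genes (4145 in POST and 2639 in PRE) and 2 of 3 leukocyte genes (5.49 in POST and 2.23 in PRE) higher. In the POST hypothalamus 5 of 5 skeletal muscle genes and 3 of 5 pituitary genes were higher and 5 of 5 smooth muscle genes lower. In the POST ovary 6 of 7 liver genes were higher (summed RPKM 786 in POST and 331 in PRE). Of all compared genes, at least 2-fold higher in POST were 1.72% in hypothalamus, 4.1% in ovary, 4.14% in fat and 2.02% in muscle. At least 2-fold lower were 1.48% in hypothalamus, 7.43% in the pituitary gland, 13.5% in endometrium and 1.52% in muscle. Whether a little RNA of another tissue lay in each library, or 1 library was mixed or exchanged, cannot be told apart in a mean. The POST ovary and POST fat values may therefore not be those of the labelled tissue alone. The part of these transcripts in the clock gene values was not tested beyond the values given for ovary and fat.

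All 7 clock genes were expressed in all 8 tissues at both stages, from an RPKM of 0.686 (CLOCK, PRE muscle) to one of 80.7 (PER1, PRE fat). Each of the 56 gene and tissue pairs was above the limit of detection, set at an RPKM of 0.2. The mean unique reads of the 7 genes ran from 78 to 11853. Such reads are no measure of detection, since ARNTL2 had 78 of them in POST liver at an RPKM of 0. PER1 had the highest RPKM of the 7 in 15 of the 16 groups, the exception being the POST hypothalamus, where CRY2 stood at 19.7 and PER1 at 16.8. CLOCK had the lowest RPKM in 14 groups, and ARNTL in both pituitary groups. The lowest group of a gene lay a limited way below its highest: the ratio of the highest to the lowest tissue, as means of both stages, was 2.52 for NR1D2, 2.605 for ARNTL, 2.81 for CRY2, 3.125 for NR1D1, 4.07 for CRY1, 4.33 for PER1 and 6.64 for CLOCK. The median of these ratios was 3.125, beside 5.10 over the 10128 genes whose RPKM was 0.5 or more in every group. Shannon entropy over the 8 tissue means, which is 3 bits for a gene at 1 level everywhere, was 2.84 (PER1) to 2.96 (ARNTL) bits on the RPKM scale, beside a median of 2.85 bits over the same 10128 genes, so PER1 and CLOCK (2.85) were no more even than the median gene. On log2(RPKM + 1), where abundant genes come nearer to 3 bits, it was 2.94 (CLOCK) to 3.00 (NR1D2) bits.

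**Figure D1:**
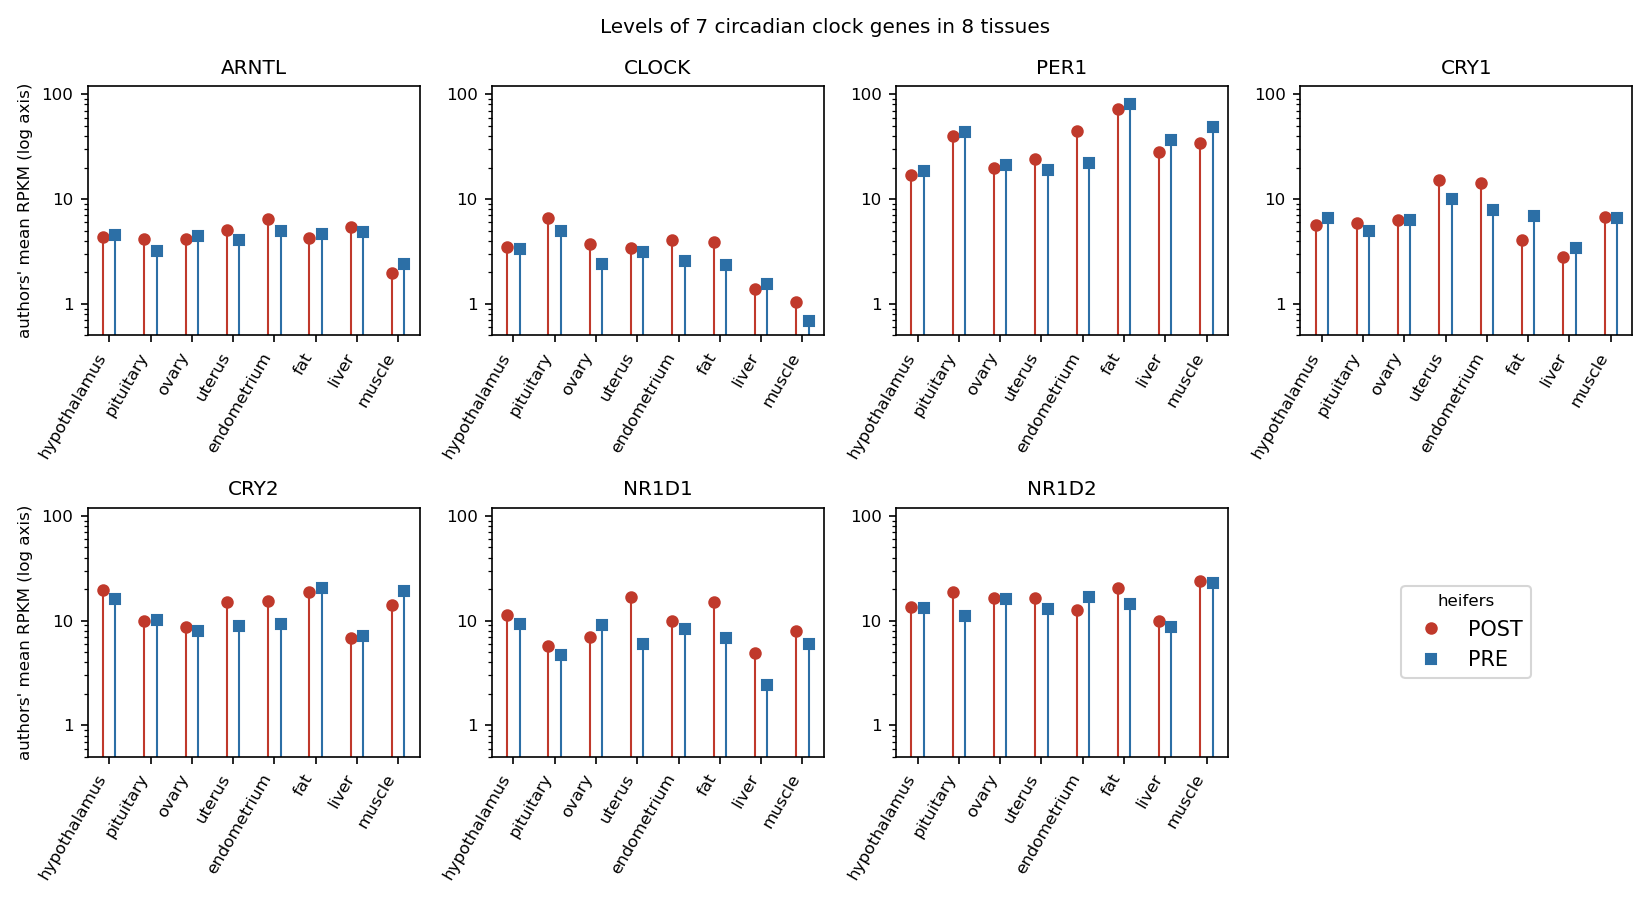
Mean RPKM (log axis) of 7 clock genes in 8 tissues, 1 panel a gene, with circles for POST and squares for PRE heifers; each point is a mean deposited by the authors and has no error bar. PER1 lies highest (16.8 to 80.7), CLOCK mostly lowest (0.686 to 6.62), and the NR1D1 circles stand well above the squares in uterus, fat and liver.

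The stages lay close together for most pairs. A difference is given here as log2(RPKM + 0.2) of POST minus that of PRE, so that it slightly understates the change of a weak gene, and 2-fold means at least 1 on this scale. Of the 56 pairs, 3 were at least 2-fold higher in POST heifers (5.36%, beside a background of 3.71% of 118789 compared gene and tissue pairs over all genes), namely NR1D1 in uterus, NR1D1 in fat and PER1 in endometrium. All 7 genes had an RPKM between 0.5 and 100 in every group, and among genes in that range 1.36% of pairs were at least 2-fold higher and 1.67% at least 2-fold lower. None of the 56 was at least 2-fold lower (background 4.62%) and none lay 4-fold apart in either direction (background 2.23%). Within 1.5-fold lay 43 pairs (76.8%, beside 81.5% of all compared pairs). The difference was positive in 35 pairs and negative in 21, with a median of 0.14, beside 0.00 over all compared pairs. The members just inside the 2-fold rule were PER1 in endometrium (1.02) and NR1D1 in fat (1.13), and those just outside it NR1D1 in liver (0.95) and CRY1 in endometrium (0.82).

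**Figure D2:**
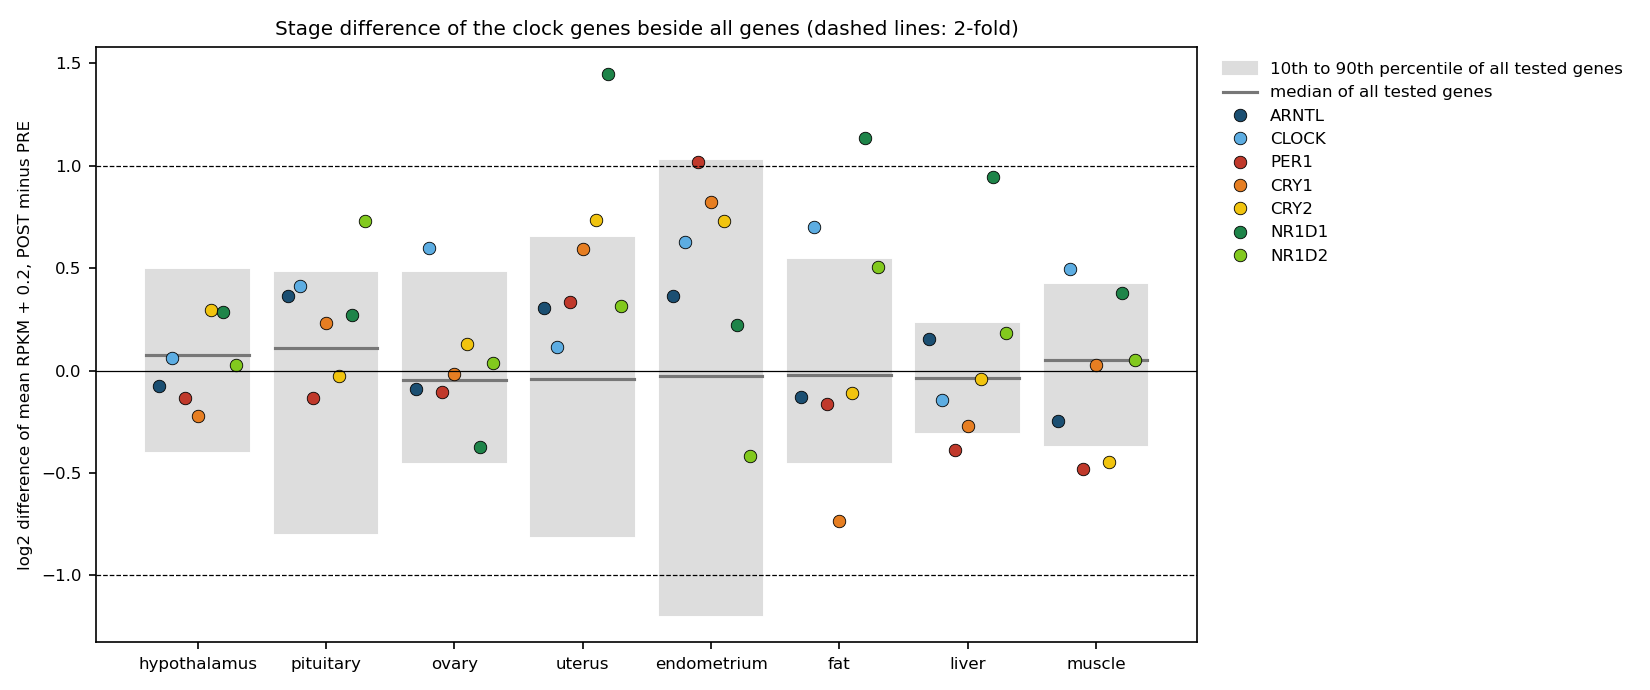
Difference between stages (log2 of mean RPKM + 0.2, POST minus PRE) of 7 clock genes in 8 tissues, as coloured points; grey boxes span the 10th to the 90th percentile of all compared genes of a tissue, grey lines their median, and dashed lines mark 2-fold. NR1D1 passes the upper line in uterus (1.45) and fat (1.13) and lies far above the narrow liver box at 0.95, while PER1 in endometrium (1.02) stays inside a wide box.

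ARNTL, one of the 2 activators of the loop, was the member that varied least between stages. Its RPKM in hypothalamus, pituitary gland and ovary was 4.33, 4.185 and 4.17 in POST and 4.57, 3.21 and 4.445 in PRE heifers. In uterus, endometrium and fat it was 5.06, 6.44 and 4.23 in POST and 4.06, 4.96 and 4.64 in PRE heifers, and in liver and muscle 5.40 and 1.98 in POST and 4.83 and 2.39 in PRE heifers. The differences ran from -0.25 in muscle to 0.36 in endometrium, 4 of them positive and 4 negative. Endometrium had the highest tissue mean (5.70), followed by liver (5.12), and muscle the lowest (2.19).

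CLOCK, its partner, was higher in POST heifers in 7 of 8 tissues, each time by less than 2-fold. In hypothalamus, pituitary gland and ovary its RPKM was 3.49, 6.62 and 3.75 in POST and 3.34, 4.92 and 2.405 in PRE heifers. In uterus, endometrium and fat it was 3.39, 4.06 and 3.92 in POST and 3.12, 2.56 and 2.33 in PRE heifers, and in liver and muscle 1.385 and 1.05 in POST and 1.55 and 0.686 in PRE heifers. The differences in fat (0.70), endometrium (0.63), ovary (0.60) and muscle (0.50) were the larger ones, and the one in liver (-0.14) was negative. In fat 6.8% of the compared genes had a difference as high, and in endometrium, where differences were wide, 18.1%. With reads scaled to the group total (CPM) in place of RPKM, and after centring each tissue on its median gene, the difference was positive in 6 of 8 tissues. The pituitary gland held the most CLOCK, and only there did CLOCK exceed ARNTL, at a ratio of 1.58 in POST and 1.53 in PRE heifers. In the other tissues the ratio of CLOCK to ARNTL lay between 0.2565 (POST liver) and 0.927 (POST fat), and that in fat was 0.927 in POST and 0.502 in PRE heifers.

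PER1, a repressor of the loop that is also quickly induced by glucocorticoids and cyclic AMP, was higher in POST endometrium and, by less, in POST uterus, and lower in the other tissues. In endometrium, with 3 libraries per stage by the labels, its RPKM was 44.7 in POST and 21.9 in PRE heifers. The difference was 1.02, from means of 5075 and 2101 reads. Thus 1 of the 7 members was at least 2-fold higher in this tissue, where 10.4% of all compared genes were. A difference as high as that of PER1 was found in 10% of the compared genes. In uterus it was 23.9 in POST and 18.96 in PRE heifers (0.33). The difference was negative in the other 6 tissues. In liver PER1 stood at 28.1 in POST and 36.7 in PRE heifers (-0.39, with 6.01% of the compared genes as low), and in muscle at 34.5 in POST and 48.2 in PRE heifers (-0.48, with 6.95% as low). In fat, its highest tissue, the values were 72.1 in POST and 80.7 in PRE heifers, and in the pituitary gland 39.6 in POST and 43.4 in PRE heifers. Ovary had 19.6 in POST and 21.1 in PRE heifers, and hypothalamus, its lowest tissue, 16.8 in POST and 18.5 in PRE heifers. The endometrium difference fell under 2-fold with 1 added in place of 0.2, after centring, and when the 10 most abundant genes were left out of the totals.

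CRY1 and CRY2, the cryptochromes that carry most of the repression of CLOCK and ARNTL, were higher in POST uterus and endometrium, by less than 2-fold. CRY1 had an RPKM of 15.3 in POST and 10.1 in PRE uterus (0.59) and of 14.1 in POST and 7.90 in PRE endometrium (0.82). CRY2 had 14.9 in POST and 8.875 in PRE uterus (0.74) and 15.5 in POST and 9.26 in PRE endometrium (0.73). In uterus 8.28% of the compared genes had a difference as high as that of CRY2, and 11.1% one as high as that of CRY1. Elsewhere the pair parted. CRY1 was lowest relative to PRE in fat, at 4.09 in POST and 6.94 in PRE heifers (-0.74, with 3.56% of the compared genes as low), while CRY2 in fat was 18.8 in POST and 20.3 in PRE heifers (-0.11). CRY2 was lower in POST muscle, at 14.1 in POST and 19.3 in PRE heifers (-0.45), where CRY1 was 6.72 in POST and 6.58 in PRE heifers (0.03). In hypothalamus CRY2 stood at 19.7 in POST and 15.98 in PRE heifers (0.30), and CRY1 at 5.65 in POST and 6.61 in PRE heifers (-0.22).

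The remaining cryptochrome differences ran from -0.27 (CRY1 in liver, with 11.9% of the compared genes as low) to 0.23 (CRY1 in the pituitary gland). CRY1 was at 5.86 in POST and 4.96 in PRE pituitary gland, at 6.25 in POST and 6.315 in PRE ovary, and at 2.815 in POST and 3.44 in PRE liver. CRY2 was at 9.93 in POST and 10.1 in PRE pituitary gland, at 8.78 in POST and 8.01 in PRE ovary, and at 6.87 in POST and 7.065 in PRE liver. The ratio of the pair varied more between tissues than between stages. CRY1 reached the level of CRY2 in uterus (ratio 1.03 in POST and 1.14 in PRE heifers) and came near it in endometrium (0.910 in POST and 0.853 in PRE heifers). In fat CRY2 prevailed the most, with a ratio of CRY1 to CRY2 of 0.217 in POST and 0.341 in PRE heifers. The other tissues lay between, from 0.287 in POST hypothalamus to 0.789 in PRE ovary.

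NR1D1, the REV-ERB alpha repressor of ARNTL, had the widest range of differences of the 7 members (from -0.37 to 1.45) and was higher in POST heifers in 7 of 8 tissues, under each scaling tried. In uterus its RPKM was 16.8 in POST and 6.03 in PRE heifers (1.45, from means of 1006 and 356 reads). It was the only one of the 7 members at least 2-fold higher there, where 5.32% of the compared genes were, and 2.64% of them had a difference as high. In fat it was 15.1 in POST and 6.76 in PRE heifers (1.13, from means of 812 and 495 reads), again 1 member of 7, with 4.14% of the compared genes at least 2-fold higher and 3.38% with a difference as high. In liver it was 4.88 in POST and 2.43 in PRE heifers (0.95, from means of 331 and 152 reads). No member passed 2-fold in liver, where the stages were most alike and only 0.303% of the genes were 2-fold higher; 52 of 13550 genes (0.384%) had a difference as high as that of NR1D1.

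The other tissues showed less of it. NR1D1 stood at 11.3 in POST and 9.19 in PRE hypothalamus, at 5.69 in POST and 4.68 in PRE pituitary gland, at 9.845 in POST and 8.40 in PRE endometrium, and at 7.89 in POST and 6.02 in PRE muscle. In ovary alone it was lower, at 6.92 in POST and 9.035 in PRE heifers (-0.37). Of the 2-fold calls, that in uterus was the one that held with each amount added, each scale and the mixture of distributions tried, which called 2 pairs of the 56 higher, NR1D1 in uterus and in liver, and none lower (background 2.16% and 2.53%). The call in fat was lost with CPM (0.99), and the liver difference reached 2-fold with 0.01 added (1.001). The overlapping gene Q1RMT4_BOVIN had differences of 0.24 in uterus, -0.05 in fat and 0.23 in liver, smaller than those of NR1D1. In hypothalamus (0.24) and ovary (-0.38) its differences were close to those of NR1D1. The RPKM of Q1RMT4_BOVIN was above that of NR1D1 in every group, at 133.9 in POST hypothalamus, 47.0 in POST uterus and 39.9 in PRE uterus. The part of shared reads in the NR1D1 levels and ratios was not tested.

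NR1D2, the REV-ERB beta partner of NR1D1, was also positive in 7 of 8 tissues, with smaller differences (6 of 8 with CPM and after centring). In the pituitary gland its RPKM was 18.7 in POST and 11.2 in PRE heifers (0.73), and 2.83% of the compared genes had a difference as high; 0.989% were at least 2-fold higher there. In fat it was 20.3 in POST and 14.25 in PRE heifers (0.50). Endometrium went the other way, at 12.5 in POST and 16.8 in PRE heifers (-0.42). In uterus it was 16.3 in POST and 13.03 in PRE heifers, and in liver 9.91 in POST and 8.695 in PRE heifers. The stages differed by 0.03 to 0.05 on the log2 scale in muscle (23.8 in POST, 23.0 in PRE), ovary (16.6 in POST, 16.2 in PRE) and hypothalamus (13.5 in POST, 13.2 in PRE). NR1D2 was the more abundant of the pair in 15 of the 16 groups, the exception being POST uterus, where the ratio of NR1D1 to NR1D2 was 1.03, against 0.463 in PRE uterus. The ratio was 0.744 in POST and 0.475 in PRE fat, and 0.492 in POST and 0.280 in PRE liver. Since NR1D1 represses ARNTL, their ratio was computed as well. It was 3.32 in POST and 1.49 in PRE uterus, 3.57 in POST and 1.46 in PRE fat, and 0.903 in POST and 0.503 in PRE liver. ARNTL itself differed by 0.30 in uterus, -0.13 in fat and 0.15 in liver.

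Taken by tissue, uterus was the only one with all 7 members higher in POST heifers, at a median difference of 0.33, beside -0.04 over the compared genes, and this held under each scaling. Endometrium had 6 of 7 higher, at a median of 0.63, beside -0.03, with the widest spread of all genes. The pituitary gland had 5 of 7 higher, at a median of 0.27, beside 0.11 over the compared genes. Centring that tissue took 0.14 off each difference there and left a median of 0.13. In hypothalamus, ovary, fat, liver and muscle 3 or 4 of 7 members were higher, with medians from -0.11 to 0.03, and the count changed with the scaling to between 2 and 5. In the tissues where no member passed 2-fold higher, the background of such genes was 1.72% in hypothalamus, 0.989% in the pituitary gland, 4.1% in ovary, 0.303% in liver and 2.02% in muscle. No member was at least 2-fold lower in any tissue. The background of such genes was 1.48% in hypothalamus, 7.43% in the pituitary gland, 2.42% in ovary and 7.25% in uterus. It was 13.5% in endometrium, 1.66% in fat, 0.494% in liver and 1.52% in muscle. No error stands beside these counts, and the members of a tissue share the same libraries.

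Both tissues of the tract parted in which members led. In uterus NR1D1 led, with CRY2 and CRY1 behind it and PER1 at 0.33. In endometrium PER1 led, with CRY1, CRY2 and CLOCK behind it and NR1D1 at 0.22. The difference between the tissues was not tested, and endometrium had 3 libraries per stage by the labels where uterus had 4. Beside these values, the smooth muscle genes were lower in POST endometrium (median -3.72) and not in POST uterus (median 0.37). Of the 3 matched cell cycle genes, MKI67 and CDK1 were lower in POST uterus (-3.71 and -2.91) and in POST endometrium (-3.89 and -1.84), while CCNB1, at 188 in POST and 41.9 in PRE endometrium (2.16), was higher there and differed by -0.14 in uterus. Their part in the clock gene values was not tested, and fewer cells of a type and less RNA per cell cannot be told apart in bulk tissue.

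Of 29 other genes of the clock and its outputs, 20 matched a name. Over 154 gene and tissue pairs that could be compared, 5 were at least 2-fold higher and 4 at least 2-fold lower in POST heifers (3.25% and 2.6%), no more than the background of 3.71% and 4.62%. Uterus held 3 of the higher and 2 of the lower of 20 genes (15% and 10%, beside 5.32% and 7.25%). The output genes DBP and TEF, transcription factors of the PAR bZIP family that act at D-box sites, had positive differences in uterus too. DBP had an RPKM of 38.2 in POST and 16.9 in PRE uterus (1.16) and of 23.2 in POST and 21.6 in PRE endometrium (0.10). TEF had 28.3 in POST and 16.6 in PRE uterus (0.77) and 19.9 in POST and 15.3 in PRE endometrium (0.37), and its differences in the other tissues ran from -0.20 in ovary to 0.54 in the pituitary gland. NFIL3, the bZIP repressor that competes with them at D-box sites, had the largest difference of the 20, at 129.5 in POST and 12.9 in PRE uterus (3.31), against 33.0 in POST and 21.7 in PRE endometrium (0.60).

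Other genes of the loop went either way. ARNTL2, a paralogue of ARNTL, was lower in POST uterus, at 0.854 in POST and 2.87 in PRE heifers (-1.54), and in POST endometrium, at 0.00669 in POST and 0.454 in PRE heifers (-1.66, near the limit of detection). RORB, an activator at the sites that NR1D1 and NR1D2 occupy, was lower in POST uterus, at 7.70 in POST and 17.5 in PRE heifers (-1.165), against 0.57 in endometrium. The background of genes at least 2-fold lower was 7.25% in uterus and 13.5% in endometrium. RORA of the same family differed by 0.06 in uterus, and BHLHE40 and BHLHE41, repressors at E-box sites, by 0.30 and 0.59. CSNK1D and CSNK1E, the casein kinases that mark PER proteins for decay, differed by 0.34 and 0.49 in uterus and by 0.58 and 0.78 in endometrium, short of 2-fold. TIMELESS was lower in POST endometrium, at 1.99 in POST and 5.16 in PRE heifers (-1.29), and differed by -0.93 in uterus; it also works at replication forks. PPARGC1A, a coactivator of the ROR receptors, was higher in POST uterus (2.92 in POST, 1.05 in PRE; 1.32) and in POST muscle (13.4 in POST, 4.425 in PRE; 1.55), where 2.02% of the compared genes were 2-fold higher. LPIN1, a lipid phosphatase, was higher in POST ovary (1.27).

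**Figure D3:**
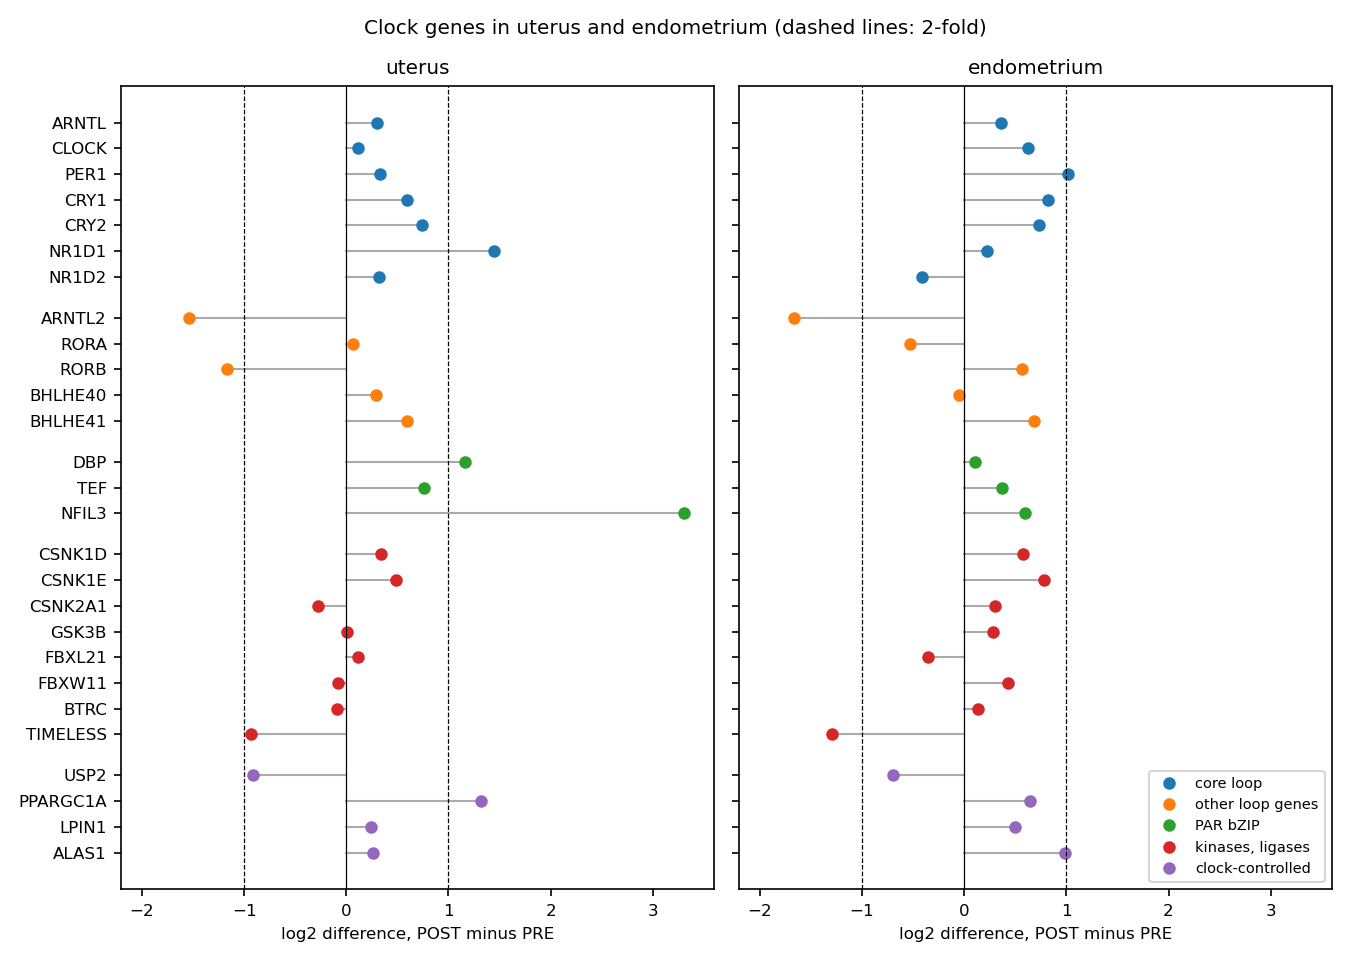
Difference between stages (log2 of mean RPKM + 0.2, POST minus PRE) of 7 clock genes and the 20 matched genes of the clock and its outputs, in uterus (left) and endometrium (right); dashed lines mark 2-fold and colours the gene lists. NFIL3 (3.31), NR1D1 (1.45), PPARGC1A (1.32) and DBP (1.16) pass the upper line in uterus, and none of them does in endometrium. There NFIL3, NR1D1 and DBP stand at 0.60, 0.22 and 0.10, and PER1 (1.02) passes the line.

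Genes that answer to signals known to reset clocks were looked at in the same tissues. FKBP5, a co-chaperone of steroid receptors that glucocorticoids and progestins induce, was higher in POST uterus, at 64.5 in POST and 8.55 in PRE heifers (2.89), and in POST endometrium, at 56.0 in POST and 10.98 in PRE heifers (2.33). It differed by -0.88 in fat and -0.79 in liver. KLF9 and SGK1, also induced by glucocorticoids, differed by 0.89 and 0.83 in uterus and by -0.11 and 0.22 in endometrium, and PDK4 was lower in POST endometrium (-1.24). Of the 4 matched immediate early genes, 2 were at least 2-fold higher in uterus (background 5.32%). In endometrium 1 was higher and 1 lower (background 10.4% and 13.5%). FOS was higher in POST uterus, at 44.1 in POST and 6.20 in PRE heifers (2.79). It was lower in POST endometrium, at 5.29 in POST and 18.5 in PRE heifers (-1.77). NR4A1 was higher in both, by 2.15 in uterus and 1.17 in endometrium. In fat and liver, the other tissues where NR1D1 was high in POST heifers, no gene of these 2 lists was 2-fold apart, of 8 matched (4 in each list). The background was low in these tissues, at 4.14% higher and 1.66% lower in fat and 0.303% higher and 0.494% lower in liver, so nothing is read from this count.

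The ovary values depend on the pituitary transcripts in the POST mean. Each marker share was therefore taken off as a part of the POST pituitary mean, and what was left was scaled back to a whole library. With the highest share, 24.4%, PER1 stood at 13.2 in POST and 21.1 in PRE ovary (-0.67, against -0.11 as deposited), and CLOCK at 2.82 in POST and 2.405 in PRE ovary (0.21, against 0.60 as deposited). NR1D1 was at -0.30, ARNTL at -0.09 and CRY2 at 0.07, and the small differences of CRY1 (0.01) and NR1D2 (-0.02) changed sign. With the lowest share, 8.96%, CLOCK was at 0.49 and PER1 at -0.26, and no sign changed. No member passed 2-fold in ovary with either share. In fat, with 6.53% of the POST liver mean taken off in the same way, NR1D1 was at 1.20 and CLOCK at 0.76, and no sign or call changed.

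**Figure D4:**
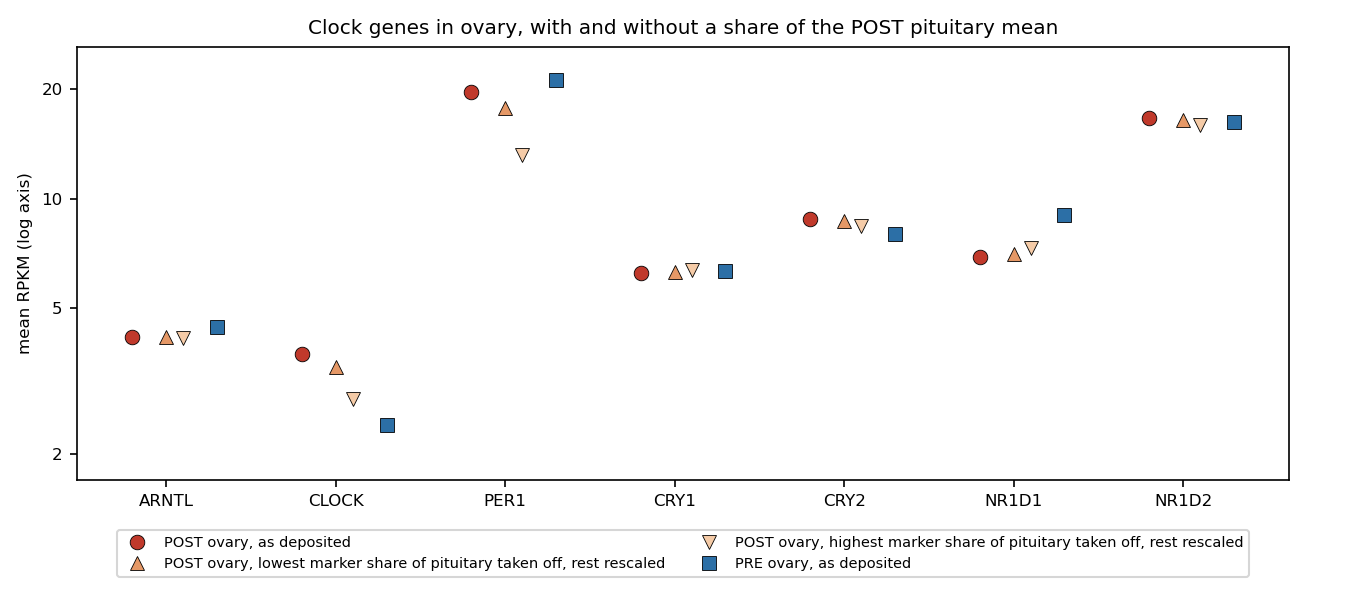
Mean RPKM (log axis) of 7 clock genes in ovary, with circles for POST as deposited, upward triangles for POST after the lowest and downward triangles after the highest marker share of the POST pituitary mean is taken off and the rest rescaled, and squares for PRE as deposited. PER1 and CLOCK move the most, to 13.2 and 2.82 in POST with the highest share, against 21.1 and 2.405 in PRE, and the other 5 genes stay near their deposited values.

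The order of the tissues for 1 gene depends on how groups are put on 1 scale. On the RPKM scale fat had the highest tissue mean of PER1 (76.4) and CRY2 (19.6), uterus that of CRY1 (12.7) and NR1D1 (11.4), muscle that of NR1D2 (23.4), the pituitary gland that of CLOCK (5.77), and endometrium that of ARNTL. Liver had the lowest mean of CRY1 (3.13), CRY2 (6.97), NR1D1 (3.65) and NR1D2 (9.30), muscle that of ARNTL and CLOCK (0.8685), and hypothalamus that of PER1 (17.7). Neighbours in these orders were often close, such as uterus and fat for NR1D1 (ratio 1.045), and no error is at hand to separate them. Liver and muscle RNA holds a few very abundant transcripts, and setting all groups to the same median gene divided their means by 0.549 to 0.655, against 1.02 to 1.30 in the other tissues. Then only CLOCK and NR1D2 kept their highest tissue, PER1, CRY1, CRY2 and NR1D1 stood highest in muscle, and ARNTL in liver. CLOCK was highest in the pituitary gland and NR1D2 in muscle under every scaling tried.

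Among 5905 named genes whose RPKM was 1 or more in at least 8 groups, the patterns most like each member over the 16 group means on the log2 scale were these, as a description over groups that share animals. ARNTL was followed most closely by PIGX (r = 0.94), CARKD and SORL1, and CLOCK by BDP1 (0.95), PIK3C2A and ZMYND12. PER1 had PCOLCE2 (0.85), WHAMM and AGPAT2, the last an enzyme of fat synthesis. CRY1 had IWS1 (0.89), MKL1 and RASA4B, and CRY2 had MTMR10 (0.87), CCDC85A and PODN. NR1D1 had RGMB (0.82), DIP2C (0.81) and TEF (0.79), which is a gene of the clock output, and NR1D2 had NEK7 (0.90), NEU3 and WBP11. With CPM, 6 of these 21 genes were chosen again, so the names depend on the scale.

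The differences between stages were compared in the same way over the 8 tissues, for the 3 members with the widest range, among 3837 genes whose RPKM was 1 or more in every group. NR1D1 was most like SDR39U1 (r = 0.91), MUTED, IFNAR2, SMOC2 and FAM63A, and most unlike HTATIP2 (-0.92), SRPRB and PITRM1. Among the genes most like CRY1 were ZBTB49 (0.98), PREB, CYTH1 and PROSER1, and it was most unlike NIPSNAP1 (-0.94), CLN6 and CCDC50. PER1 was most like RTN3 (0.98, listed under 2 identifiers), TMUB2, MAP4K2 and TPCN1, and most unlike GHDC (-0.98), DPY19L1 and STAT5A. Within the clock, the differences of NR1D1 had an r of 0.69 with DBP and 0.69 with TEF, or 0.42 and 0.52 without uterus, and those of PER1 an r of 0.86 with CRY2 and 0.75 with CRY1, or 0.76 and -0.07 without uterus and endometrium. NR1D1 and ARNTL had an r of 0.19. PER1 and FKBP5 had an r of 0.81, which was -0.03 without uterus and endometrium.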

How the data were processed

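RNA of 61 libraries was sequenced, and per the labels and the methods of the study the authors mapped reads to the bovine assembly UMD3.1 (Ensembl release 74) with CLC Genomics Workbench, whose version is not given in the sources used here. The deposited values, per gene, tissue and stage, are the authors' mean RPKM and their mean count of unique reads. RPKM divides reads by exon length and library total. A gene at an RPKM of 0 can still hold unique reads, so CPM can count reads that RPKM leaves out. No value per library was used, so the planned tests with errors, replicates and animals could not be run, and no p-value is given.

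Differences were log2(mean RPKM + 0.2), POST minus PRE, for genes at an RPKM of at least 0.2 in 1 stage or both, and were called at 2-fold, with 4-fold beside it. Names came from the deposited gene names, from the part of a supplementary list used here and from a hand-made key to UniProt entries; 12030 genes had no symbol, so lists miss some members. The 10 members and all lists were chosen with earlier results of these data known. The text names all matched members, up to 4 listed genes per list and tissue past 2-fold where a member was, other listed genes for comparison (chosen after their values were seen), and the genes most alike by Pearson's r. RPKM shares and ratios were computed from the means, and the counting was tested on simulated data. Because means are used, depth can be given only per group. Promoter motifs and sequences were not analysed here. A single one of the genes most alike is not reported here. Alternatives were 1 or 0.01 added, mean reads scaled to the group total (CPM), centring, totals without the 10 most abundant genes, other limits on low values, a mixture of 2 normal distributions called at a posterior of 0.99, leaving out each tissue, and, chosen after seeing the data, taking pituitary or liver shares off (the rest divided by 1 minus the share). Software was Python 3.11.15, numpy 2.4.6, pandas 2.3.3 and matplotlib 3.10.9.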

Additional observations from a re-analysis of the deposited data

How the results depend on the processing

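No paired analysis was possible because the deposited values are group means and POST and PRE share no animal, and leaving out replicates was not run for the same reason. The count of clock gene pairs at least 2-fold higher stayed between 2 and 4 under all alternatives tried, and the counts at least 2-fold lower and 4-fold apart stayed at 0. With the highest pituitary share taken off and the rest rescaled, PER1 in ovary was at -0.67. Among 56 differences, the sign changed in 6 with CPM, in 5 after centring and in 3 without the 10 most abundant genes. With CPM CRY1 in endometrium reached 2-fold (1.005), and the mixture called NR1D1 in uterus and liver but not in fat, nor PER1 in endometrium. Other clock and output pairs at least 2-fold higher numbered 5, against 9 with 0.01 added and 12 with CPM, among them PPARGC1A in ovary under both. Of the 7 members, 2 kept their highest tissue after centring all groups, and of the 21 genes most alike in pattern, 6 were shared with CPM, 8 after centring and 11 without the 10 most abundant genes. The causes were not tested, other than that a smaller amount added raises the differences of weak genes. Without errors, differences of the size of most of these cannot be set against the spread between heifers.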

Other observations

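Genes of the suprachiasmatic nucleus, the master clock, were looked at in hypothalamus, where 7 of 8 matched genes could be compared. Of these, 2 were at least 2-fold higher in POST heifers (background 1.72% of the compared genes) and none at least 2-fold lower (background 1.48%). The median difference of the 7 was 0.02, beside 0.07 over all compared genes, and not every one of them is named here. NMS, a peptide of that nucleus, had an RPKM of 1.40 in POST and 0.323 in PRE hypothalamus (1.62), and RGS16, a regulator of G protein signalling there, had a difference of 1.09. PROK2, another peptide of the nucleus, lay under the limit of detection at both stages. The peptides VIP and AVP differed by -0.22 and -0.48 and the transcription factors SIX6 and RORB by 0.99 and 0.02. The study, with a model of its own, reports VIP as up-regulated in hypothalamus and AVP among its most significant genes there. In the means used here both were lower in POST heifers. The study places AVP synthesis in the supraoptic and paraventricular nuclei, so its value is not one of the suprachiasmatic nucleus alone. HCRT and PMCH, peptides of the neighbouring lateral hypothalamus, were higher too, by 3.17 and 1.95. Skeletal muscle transcripts (summed RPKM 46.3 in POST and 10.8 in PRE) and pituitary transcripts (265 in POST and 48.9 in PRE) were also higher in POST hypothalamus, and smooth muscle transcripts lower (36.3 in POST and 137 in PRE); their part was not tested.

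Of the 5 matched genes of melatonin and photoperiod, 4 could be compared in hypothalamus, pituitary gland and endometrium each. In hypothalamus 1 was at least 2-fold higher and 1 lower (background 1.72% and 1.48%), and in the pituitary gland 1 higher (0.989%). In endometrium 2 were higher and 1 lower (10.4% and 13.5%). In ovary 3 of 5 were higher (4.1%), TSHB among them. Not every one of these is named with its value. DIO2 activates thyroid hormone in the hypothalamus in response to day length in seasonal mammals. It differed by -1.79 in hypothalamus and by 1.06 in the pituitary gland. TSHB, a thyrotropin subunit, differed by 0.77 in the pituitary gland, which was sampled whole and not by its parts. EYA3, a coactivator of TSHB in the pars tuberalis of sheep, differed by 0.52 in the pituitary gland and was higher in POST endometrium, at 25.8 in POST and 11.2 in PRE heifers (1.20). Season and stage cannot be told apart in these means. The pituitary gland and hypothalamus means also differed between stages in transcripts of other cells and tissues, as given above, and their part was not tested.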
